A study of Caenorhabditis elegans with 46 samples.

Results

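The libraries described here came from whole first-stage (L1) Caenorhabditis elegans larvae that carried Ath-HEN1, the small RNA methyltransferase of the plant Arabidopsis thaliana, under a driver labelled ASE, with the worm's own methyltransferase gene henn-1 intact. They were the 4 libraries titled ASE:HEN1 of the transgenic lines MLC702 and MLC703, out of 46 libraries in the series, and each line gave 1 library treated with sodium periodate and 1 untreated library. All 473 worm microRNA arms of the tables were read in them. The comparison groups were 3 further genotypes of 4 libraries each. The first was ASE:Ath-HEN1 in henn-1(0) worms, which lack the worm's own enzyme (lines MLC749 and MLC750). The next was myo-3:Ath-HEN1 with henn-1 intact (lines MLC889 and MLC890), where the myosin gene that names the driver is one of body wall muscle. The last was the wild type strain N2, with henn-1 and no plant enzyme. Each of the 8 groups of a genotype and a treatment held 2 libraries, described in the series as biological replicates. Library numbers run from 40634 to 40637 in the ASE lines with henn-1 and are 32793, 32794, 34092 and 34093 in wild type. What the numbers mark is not given, so a difference between genotypes and one between rounds of preparation cannot be told apart. The labels name ASE without naming the promoter, and small RNA libraries hold no measure of the henn-1 or Ath-HEN1 messenger RNA.

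The method rests on the last sugar of a small RNA. Periodate opens that sugar where its hydroxyl groups are free, and the opened end does not take the adapter used to build a library. The plant enzyme HEN1 adds a methyl group there, so that microRNAs of the cells that make the enzyme are spared in RNA from whole animals. The worm enzyme HENN-1 does the same to piRNAs and to the small RNAs of some Argonaute proteins in all genotypes where henn-1 is intact. The ASE neurons are a left and a right salt-sensing neuron of the head. The left one is known for lsy-6, a microRNA that represses the transcription factor gene cog-1 and so sets the left cell apart from the right one. miR-124 marks neurons, miR-1 muscle and miR-60 the intestine.

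The oxidised ASE libraries held 633000 counts in MLC702 and 1270000 in MLC703, and the untreated ones held 43300000 and 39600000. Oxidised libraries of wild type held 426000 and 847000 counts. Over the series, oxidised libraries ranged from 426000 to 35300000 counts and untreated ones from 10700000 to 43300000. On log2 CPM (counts scaled to 1 common library total) the replicate libraries correlated across arms at r = 0.974 for oxidised and r = 0.997 for untreated ASE, and no 2 libraries of these groups were identical. Levels below are CPM, given for MLC702 and then MLC703, or for library 32794 and then 34093 in oxidised wild type and 32793 and then 34092 in untreated wild type, and in the order of the lines above elsewhere. CPM are shares of a library, so they say nothing of how much RNA survived periodate, and in RNA from whole animals fewer cells of a type and less RNA per cell cannot be told apart. An oxidation effect is the log2 ratio of oxidised over untreated, and a difference of effects is one such ratio minus another, both from 1 edgeR model of all 46 libraries with 395 arms tested. The scale on which libraries of such different make-up are set moved the median arm by up to 2.36 on the log2 scale, so each log2 value is given relative to the median arm of its comparison, while its standard error (SE) and its adjusted p come from the test before that shift. "Rose", "fell", "higher" and "lower" for the ASE libraries are used of arms called at an adjusted p of 0.05 in the same direction under 3 scalings (TMM, RLE and total counts), unless a scaling is named.

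Against wild type, the microRNAs with the larger oxidation effects in the ASE lines were lsy-6 and a small set of others. Of 395 arms, 17 were called higher in the ASE lines than in wild type and 1 lower with TMM (edgeR, adjusted p below 0.05), which is 4.3% and 0.253% of those tested and 4.56% together, and 15 (3.8%) kept that call under all 3 scalings. The 17 arms came from 13 hairpins. In each of the 17, both oxidised ASE libraries stood above both oxidised wild type libraries in CPM, a pattern that 66 of the 395 arms (16.7%) had. Such a call compares 2 ratios of oxidised over untreated, so a difference between the untreated libraries also enters it. Of the 17, 9 also rose within the ASE lines, as 23.5% of all arms did, and 0 fell there, as 22.3% did. In wild type 15 of them were called lower on oxidation, as 48.9% of all arms were. The 17 were picked on the difference between these same libraries. The CPM pattern and these counts follow in part from that choice and are no separate evidence.

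**Figure D1:**
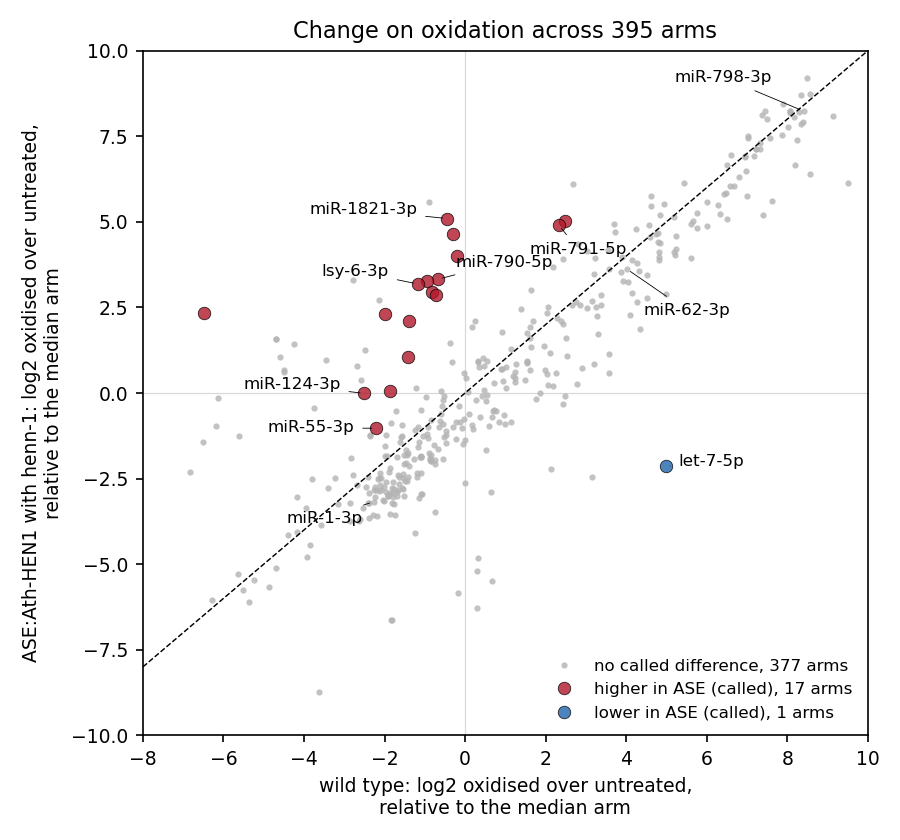
Oxidation effect of each of the 395 tested arms relative to the median arm (log2) in the ASE lines with henn-1 on the vertical axis and in wild type on the horizontal axis, 1 point an arm, with the dashed line marking equal effects. Red points are the 17 arms called higher in the ASE lines, all above the line, and the blue point is let-7-5p, called lower; the wild type value of lsy-6-5p is a fitted value from libraries at 0 counts.

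The left ASE microRNA was among them. lsy-6-3p, the arm that acts on cog-1, stood at 1055 and 846 CPM in oxidised ASE libraries, at 107 and 93.3 CPM in untreated ASE libraries, at 77.5 and 24.8 CPM in oxidised wild type and at 115 and 107 CPM in untreated wild type. Both oxidised ASE libraries were thus above every other library of these groups, and both oxidised wild type libraries were below the untreated ones. As shares of counts, oxidised ASE libraries held 0.105% (95% Wilson interval 0.0978% to 0.114%) and 0.0846% (0.0797% to 0.0898%), against 0.00775% (0.00552% to 0.0109%) and 0.00248% (0.00162% to 0.00379%) in oxidised wild type, intervals that cover counting error only. The arm rose in the ASE lines by 3.19 ± 0.43 (SE, 2 libraries a group) relative to the median arm, and its effect exceeded that of wild type by 4.86 ± 0.65 (adjusted p = 1.3e-06). Over all 395 arms, uncalled ones included, it ranked 103 by its effect within the ASE lines and 19 by the difference from wild type. The other arm of the hairpin, lsy-6-5p, had 12 and 29 counts in oxidised ASE libraries and 0 in both oxidised wild type libraries. Taking 3 counts for the 0 of the wild type group, its share of counts was at least 9.16-fold higher in oxidised ASE libraries (adjusted p = 0.0011). The lsy-6 hairpin lies at V:10647232-10647304 on the plus strand in WBcel235, the build of all positions given here, with no protein-coding gene over it.

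Besides lsy-6-3p, 3 of the arms were in a list of neuronal microRNAs. miR-790-5p had 5119 and 3777 CPM in oxidised and 439 and 404 CPM in untreated ASE libraries, against 521 and 294 CPM in oxidised and 702.3 and 604 CPM in untreated wild type, a difference of effects of 4.48 ± 0.59 (adjusted p = 1.3e-06). miR-791-3p, of the same seed family and known from carbon dioxide-sensing neurons, had 563 and 211 CPM in oxidised and 30.1 and 14.2 CPM in untreated ASE libraries, against 124 and 30.7 CPM in oxidised and 95.8 and 71.4 CPM in untreated wild type, a difference of 4.67 ± 0.90 (adjusted p = 0.000676). For both arms the share was larger in the oxidised than in the untreated library of each ASE line, while the oxidised wild type libraries lay below the untreated ones for miR-790-5p and on both sides of them for miR-791-3p. miR-124-3p, the conserved neuronal microRNA, behaved otherwise within the ASE lines: it had 7363 and 8015 CPM in oxidised and 7609 and 7556 CPM in untreated ASE libraries, a change of -0.01 ± 0.37 relative to the median arm that was not called in the same direction under the 3 scalings. In wild type it had 2152 and 863 CPM in oxidised and 8585 and 8371 CPM in untreated libraries, so that its effect was higher in the ASE lines by 2.99 ± 0.51 (adjusted p = 0.000153). The mir-790 hairpin lies at IV:5566422-5566491 and mir-791 at X:5809349-5809433, both on the plus strand; mir-124 lies in an intron of trpa-1, a channel gene, on the same strand at IV:11871738-11871833.

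Outside that list the largest difference was that of miR-1821-3p. It had 2189.7 and 2425 CPM in oxidised and 58.8 and 73.0 CPM in untreated ASE libraries, against 61.1 and 9.45 CPM in oxidised and 44.0 and 43.2 CPM in untreated wild type. Its effect was higher in the ASE lines by 6.04 ± 0.59 (adjusted p = 1.74e-09), and the 2 oxidised wild type libraries differed from each other more than the 2 ASE libraries did. miR-2953-3p had 35 and 50 counts in oxidised ASE libraries against 1 and 0 in oxidised wild type, a ratio of shares of 56.9 (95% exact interval 9.95 to 2275), and its adjusted p for the difference of effects was 0.000327. miR-793-5p had 34 and 30 counts against 1 and 0, a ratio of 42.9 (7.42 to 1720), with an adjusted p of 0.00271. miR-249-5p had 13 and 15 counts against 0 and 1, a ratio of 18.8 (3.10 to 767), and was called with TMM (adjusted p = 0.0341) and not with total counts. These intervals cover counting error only.

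The other 9 of the 17 arms are outside the rule by which arms were named, except miR-124-3p and miR-55-3p, and were added after their values were seen. Both arms of mir-254 were higher: miR-254-3p had 746 and 621 CPM in oxidised and 140.2 and 163 CPM in untreated ASE libraries, against 72.8 and 18.9 CPM in oxidised and 109.6 and 118 CPM in untreated wild type, a difference of 4.00 ± 0.56, and miR-254-5p differed by 4.28 ± 0.70. Their hairpin lies on the same strand in an intron of gcy-9, a receptor guanylate cyclase gene of carbon dioxide sensing, at X:11333531-11333630 on the minus strand. miR-791-5p had 972 and 680.2 CPM in oxidised ASE libraries and 199.7 and 103 CPM in oxidised wild type (difference 3.07 ± 0.70), so both arms of that hairpin were higher. Both arms of mir-2953 were as well, with miR-2953-5p at 61.7 and 48.1 CPM against 2.35 and 10.6 CPM (difference 3.05 ± 0.85). miR-792-3p had 487 and 552 CPM in oxidised and 428 and 546 CPM in untreated ASE libraries, so its share changed little there, against 115 and 37.8 CPM in oxidised and 296 and 245 CPM in untreated wild type (difference 2.43 ± 0.57). Its hairpin, at V:3042092-3042181, lies 348 bases from that of mir-1821, at V:3042530-3042633, on the same minus strand. miR-794-3p, from a hairpin related to let-7, had 20 and 26 counts in oxidised ASE libraries against 0 and 2 in oxidised wild type, a ratio of 15.4 (4.03 to 131). miR-53-3p differed by 2.95 ± 0.84 and rested on 12 and 54 counts in oxidised ASE libraries against 1 and 4. miR-55-3p had 26524 and 20217 CPM in oxidised and 47411 and 43679 CPM in untreated ASE libraries, against 16659 and 5639 CPM in oxidised and 47629.6 and 53479 CPM in untreated wild type, and was called with TMM (difference 1.67 ± 0.43, adjusted p = 0.0252) but not with total counts.

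**Figure D2:**
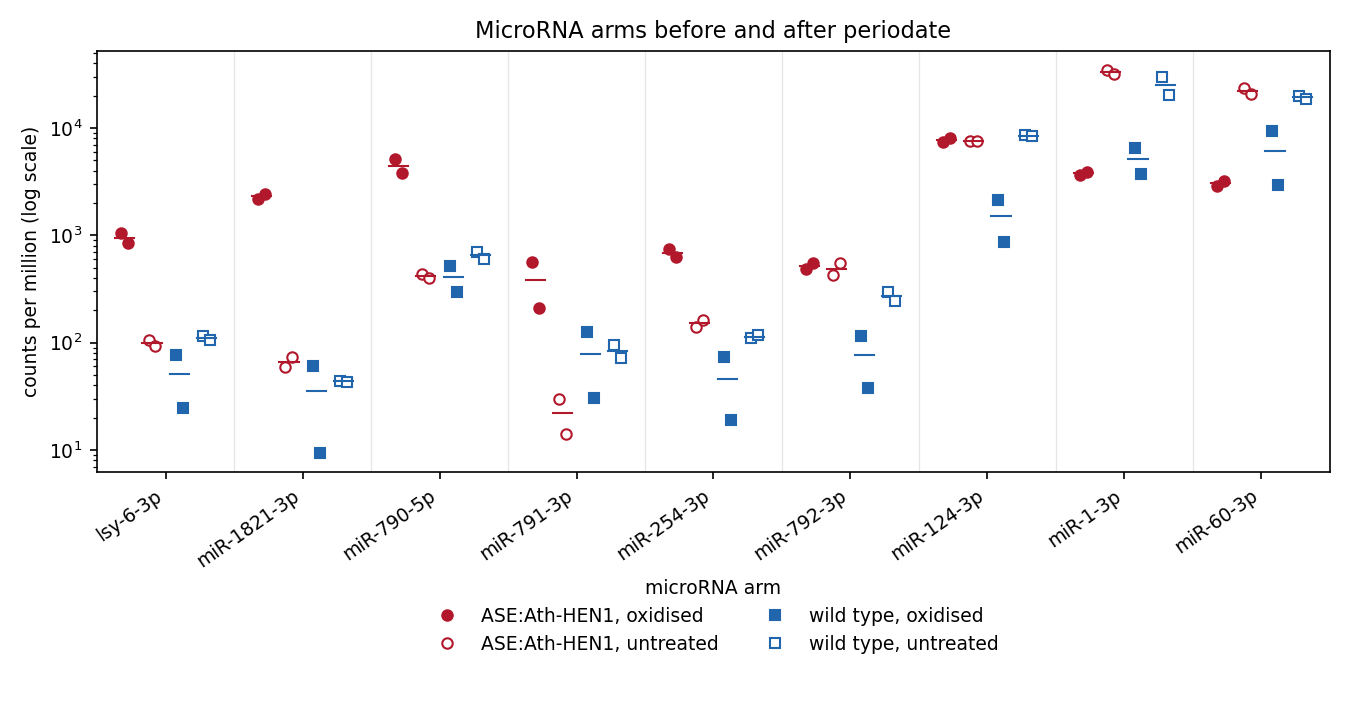
Level in CPM (log axis) of 9 arms in each library, with oxidised ASE (filled red circles), untreated ASE (open red circles), oxidised wild type (filled blue squares) and untreated wild type (open blue squares), and a line at each mean of 2 libraries. lsy-6-3p, miR-1821-3p, miR-790-5p, miR-791-3p and miR-254-3p stand highest in oxidised ASE libraries, miR-124-3p and miR-792-3p are level with untreated ASE, and miR-1-3p and miR-60-3p are low in oxidised libraries of both genotypes.

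With any 1 of the 8 libraries compared left out, 10 of the 17 arms remained called, and 7 lost the call in at least 1 such fit (miR-793-5p, miR-249-5p, miR-794-3p, miR-2953-5p, miR-53-3p, miR-792-3p and miR-55-3p). Without wild type library 34093 the adjusted p of miR-793-5p was 0.0843 and that of miR-792-3p 0.0871, and without library 32794 that of miR-794-3p was 0.0807. Of these 7 arms, miR-249-5p, miR-2953-5p, miR-53-3p and miR-55-3p lost the call in most of the fits. For miR-2953-5p the difference relative to the median arm was 4.91 without library 34093 and 2.33 without library 32794, against 3.05 with all libraries. That of miR-53-3p was 2.08 (adjusted p = 0.505) without the oxidised library of MLC703 and 3.85 (adjusted p = 0.0619) without library 34093, against 2.95. Where an oxidised wild type library left out was the only one with a count (miR-2953-3p and miR-793-5p with 32794, miR-794-3p and miR-249-5p with 34093), the remaining one stood at 0 and gave no bounded fold. The summed share of the 17 arms was 4.54% and 3.76% in oxidised ASE libraries and 5.63% and 5.26% in untreated ones, against 2.00% and 0.704% in the 2 oxidised wild type libraries, which differed from each other. The only arm called lower than in wild type was let-7-5p, the developmental timing microRNA, with 1 and 0 counts in oxidised ASE libraries against 56 and 0 in oxidised wild type, a ratio of wild type over ASE of 83.6 (14.4 to 3360). Its counts in wild type all came from library 32794; without it oxidised wild type stood at 0 and the arm was not called (adjusted p = 0.987), with no measured direction.

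Markers of other tissues mostly fell on oxidation, in the ASE lines and in wild type. Of 15 arms tested from lists of muscle, intestinal and epidermal, seam or glial hairpins, 0 rose within the ASE lines (23.5% of all arms). There, 12 of them fell (22.3% of all arms). These lists, like those below, were chosen with earlier results of these data known. They hold the more abundant arm of each hairpin by untreated counts. Over 178 hairpins with both arms tested, the more abundant arms fell in 40.4% and rose in 21.3%. The part of abundance in the list counts was not tested. In wild type with TMM, 5 of 7 muscle, 5 of 5 intestinal and 3 of 3 epidermal, seam or glial arms were called lower (48.9% of all arms). None of the 15 was called higher than in wild type with TMM, but at 4.3% of all arms so few arms cannot set these lists apart. miR-1-3p, the muscle microRNA, had 3654 and 3884 CPM in oxidised and 34745 and 31844 CPM in untreated ASE libraries, against 6542 and 3697 CPM in oxidised and 29859.7 and 20111 CPM in untreated wild type, and fell in the ASE lines by 3.17 ± 0.44 relative to the median arm. miR-60-3p, the intestinal one, had 2899.5 and 3188 CPM in oxidised and 23789.5 and 20708 CPM in untreated ASE libraries and fell by 2.90 ± 0.46. Their other arms, miR-1-5p at -0.96 and miR-60-5p at -0.63, were not called in the same direction under the 3 scalings. The median relative effect in the ASE lines was -2.47 over 7 muscle arms, of which 5 fell, -2.82 over 5 intestinal arms, of which 4 fell, and -2.59 over 3 epidermal, seam or glial arms, of which 3 fell. The intestinal list summed to 2944 and 3233 CPM in oxidised ASE libraries, 23985 and 20906 CPM in untreated ASE libraries, 9474 and 2965 CPM in oxidised wild type and 20147 and 18976 CPM in untreated wild type.

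The neuronal list was divided. It was chosen with earlier results of these data known, so its counts are no independent evidence. Of its 8 arms, 3 rose (lsy-6-3p, miR-791-3p and miR-790-5p) and 4 fell, beside 23.5% and 22.3% of all arms, with a median of -0.92; against wild type 4 were higher (3.8% of all arms) with a median of 1.82. The arms that fell were the neuronal microRNAs miR-234-3p (-3.58 ± 0.44), miR-76-3p (-3.57 ± 0.43), miR-87-3p (-1.86 ± 0.33) and miR-233-3p (-1.83 ± 0.29). miR-234-3p, for example, had 112 and 122 CPM in oxidised and 1293 and 1446 CPM in untreated ASE libraries, against 355 and 228 CPM in oxidised wild type and 1268 and 1449.7 CPM in untreated wild type, and was not called different from wild type (-0.90 ± 0.53, adjusted p = 0.455). A further list of 6 arms, high with pan-neuronal drivers and chosen from these data, so that it is no independent evidence, had 3 rises and 2 falls, and 2 of the 6 were higher than in wild type (median 0.86). In it miR-793-3p, a let-7 relative, had 10732 and 10609.9 CPM in oxidised and 581 and 586 CPM in untreated ASE libraries, against 3481 and 4542 CPM in oxidised and 560.3 and 497 CPM in untreated wild type. It rose by 4.15 ± 0.35, but it was called higher in wild type as well, and the difference of 1.60 ± 0.47 did not pass (adjusted p = 0.0645). miR-90-3p (-3.17 ± 0.46) and miR-242-5p (-3.22 ± 0.45) fell.

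Within the ASE lines, more than 1 in 2 counts of each oxidised library came from arms that rose, and most of those arms were called higher on oxidation in wild type too. With TMM, 284 of 395 arms (71.9%) were called, 93 higher and 191 lower; the split was 158 against 88 with RLE and 139 against 109 with total counts. Under all 3 scalings 93 arms (23.5%) rose and 88 (22.3%) fell. The 93 arms held 55.7% and 55.9% of the oxidised ASE counts, against 3.18% and 3.67% of the untreated ones. Of these 93, 74 (79.6%) were also called higher on oxidation in wild type, which is 90.2% of the 82 arms (20.8%) called higher there; 69.6% of arms were called either way in wild type. Across the 395 arms the relative effects of the ASE lines and of wild type, which share no library but share the arms' abundance and the depth gap between treatments, correlated at r = 0.851, with 229 arms (58.0%) within 1 log2 unit of each other.

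The largest single share was that of miR-62-3p, a microRNA from an intron of ugt-50 on the same strand (X:12692608-12692665, plus strand). It took 39.8% (95% Wilson interval 39.7% to 39.9%) and 41.1% (41.0% to 41.1%) of counts in oxidised ASE libraries and 2.95% and 3.45% in untreated ones, against 24.4% and 36.1% in oxidised wild type and 1.95% and 2.14% in untreated wild type. It rose by 3.62 ± 0.36 relative to the median arm and was not called different from wild type (0.09 ± 0.50, adjusted p = 1). miR-79-3p was the next at 11.1% and 12.3% of oxidised and 5.36% and 6.86% of untreated ASE counts; its call changed direction with the scaling. Arms rare in untreated worms made the largest rises. miR-238-5p had 21726 and 32415 CPM in oxidised and 108 and 105 CPM in untreated ASE libraries (7.99 ± 0.56), while its partner arm miR-238-3p, with 28981 and 28882 CPM in oxidised and 4584 and 5498 CPM in untreated ones, was not called with TMM. miR-232-5p had 27465 and 25089 CPM in oxidised and 91.2 and 82.5 CPM in untreated ASE libraries (8.19 ± 0.55). miR-789-1-3p, whose counts equal those of its copy miR-789-2-3p so that the 2 are not separate measurements, had 18989 and 15505 CPM in oxidised and 57.0 and 53.5 CPM in untreated ASE libraries (8.23 ± 0.41). In these 3 arms both oxidised ASE libraries stood far above both untreated ones.

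Smaller in share but with effects as large were miR-798-3p, with 5171 and 4335 CPM in oxidised and 16.8 and 13.5 CPM in untreated ASE libraries (8.24 ± 0.57), and miR-78-3p, with 10145 and 4030.1 CPM in oxidised and 27.6 and 16.3 CPM in untreated ones (8.21 ± 0.78). Both arms of mir-8198 rose, miR-8198-5p by 9.20 ± 0.68 and miR-8198-3p by 8.70 ± 0.58; the 3p arm had 2259 and 2034 CPM in oxidised and 5.40 and 4.60 CPM in untreated ASE libraries. The rest of the 15 largest rises were miR-8202-5p (7.92), miR-8192-5p (8.75), miR-5549-3p (8.44), miR-8196a-5p (8.25), miR-1833-3p (8.07) and both arms of mir-4934, of which miR-4934-3p rested on 4 counts and is no measure of size. None of these 15 was called different from wild type with TMM, but at 4.56% of all arms so few arms cannot set them apart. A list of 7 arms of hairpins chosen on these data as periodate-resistant in wild type had 6 rises, beside 23.5% of all arms. Its median was 8.23. In wild type with TMM, 6 of the 7 arms were called higher and 1 lower. The exception in the ASE lines, miR-243-5p, had 147 and 143 CPM in oxidised and 76.6 and 96.5 CPM in untreated libraries. Its relative effect was 0.70.

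**Figure D3:**
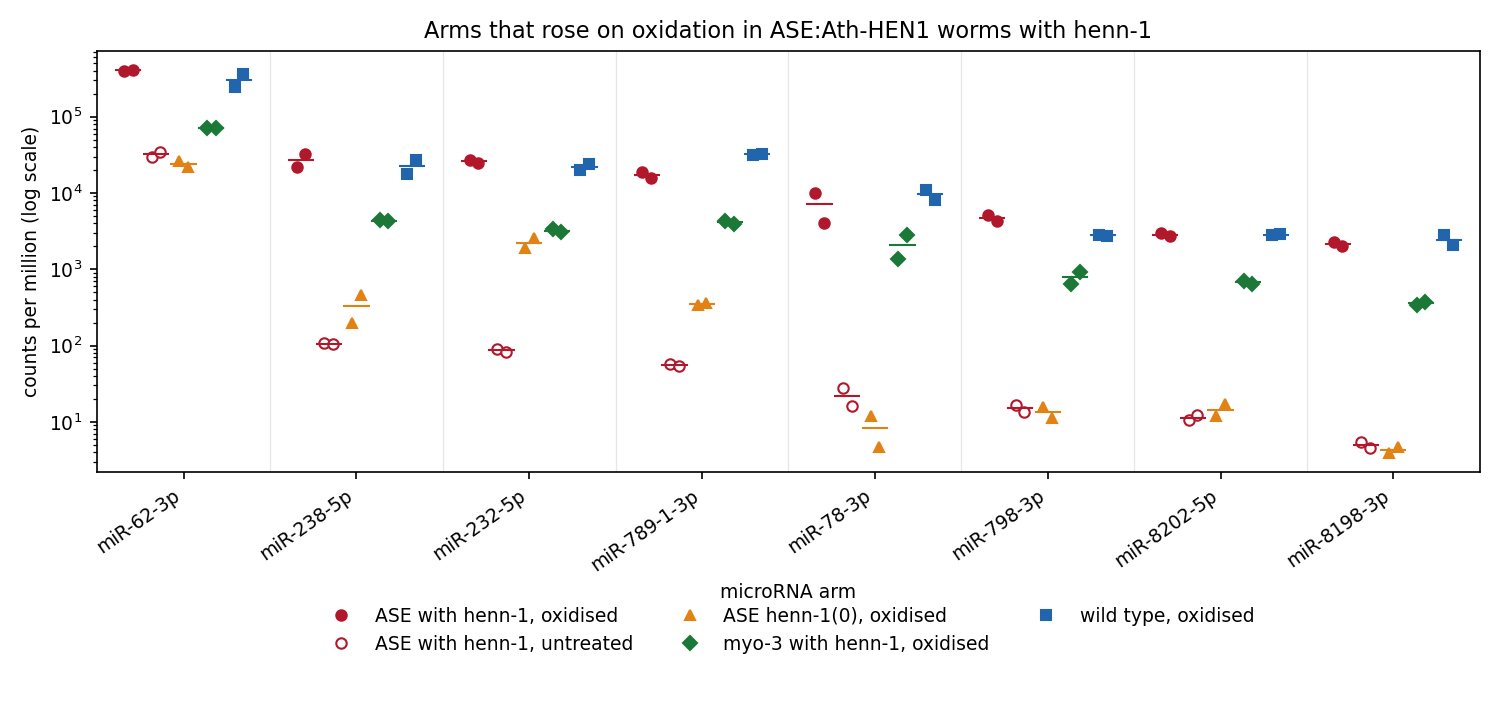
Level in CPM (log axis) of 8 arms of periodate-resistant microRNAs in oxidised ASE with henn-1, untreated ASE with henn-1, oxidised ASE in henn-1(0), oxidised myo-3 with henn-1 and oxidised wild type, 1 point a library. Oxidised ASE and oxidised wild type lie close together, oxidised myo-3 lies below them and above untreated ASE, and oxidised ASE in henn-1(0) is the lowest of the oxidised groups for all 8.

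By the median, the arms that fell were more abundant in untreated worms than those that rose. Their median level in untreated ASE libraries was 1404 CPM, against 1.60 CPM for the arms that rose and 6.25 CPM for all 395. At the depth of the oxidised libraries the fall of a rare arm could seldom be called. The part of that limit in this contrast was not tested. The families below are counted by the more abundant arm of each hairpin. Over 178 hairpins with both arms tested, such arms fell in 40.4% and rose in 21.3%. The part of abundance in the family counts was not tested. miR-52-5p, of the widely expressed miR-51 family, had 43719 and 30655 CPM in oxidised and 185379 and 164252 CPM in untreated ASE libraries (-2.31 ± 0.30), and miR-58a-3p, related to the fly growth microRNA bantam, fell by 1.85 ± 0.31. By family, and beside 22.3% of all arms that fell and 23.5% that rose, 5 of 6 arms fell in the miR-51 family (median -2.11), 4 of 5 in the miR-58 family (-2.47), 5 of 5 in the miR-64 family (-3.02), 4 of 8 in the miR-35 family of embryos (-2.22) and 2 of 3 in the miR-72 family (-1.22), with 0 rises in each. In the let-7 family 1 of 7 rose (miR-793-3p) and 1 fell, miR-48-5p, which had 1 count in each oxidised ASE library and 868 and 679 in the untreated ones. The 8 largest falls called with TMM were of arms at 0 counts in both oxidised ASE libraries, where the fitted size is no measure, and miR-1828-5p, miR-2210-5p and miR-241-5p among them were not called with RLE. The largest bound among them was that of miR-247-3p, with 484 and 479 untreated counts, whose share of counts was at least 7.36-fold lower in oxidised libraries if the group's 0 is taken as 3 counts. For miR-1832a-5p and miR-357-3p the bound was 1.74-fold and 1.70-fold, and for miR-2210-5p and miR-241-5p the depth allowed none. In all, 38 arms stood at 0 in both oxidised ASE libraries, and 17 of them were called lower with TMM, beside 48.4% of all arms.

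The arms of 1 hairpin did not always move alike, though pairs that moved the same way outnumbered those that moved in opposite ways. Of 178 hairpins with both arms tested, 24 had both arms rising, 8 had both falling and 9 had 1 rising and the other falling. Arms with fewer counts than their partner rose in 48 cases (27.0%) and fell in 9 (5.06%), whereas the more abundant arms rose in 38 (21.3%) and fell in 72 (40.4%). Arms numbered 1000 or above, which were annotated later, were 64.5% of those that rose and 14.8% of those that fell, against 44.3% of all tested. The limit of depth on calling falls of rare arms holds here too, and its part in both contrasts was not tested. Among the 17 arms called higher than in wild type, 3 arms (17.6%) were numbered 1000 or above, and their median level in untreated ASE libraries was 22.2 CPM. Of the 17, 41.2% were 5' arms (47.6% of all tested), 41.2% lay on chromosome X (31% of the tested arms) and 29.4% came from introns of a gene on the same strand (27.5% of all with a position).

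With the same driver and henn-1 absent, 6 of the 7 arms of the periodate-resistant list had smaller oxidation effects, beside 14.2% of all arms. Within henn-1(0), 3 of the 7 were still called higher on oxidation with TMM and 2 lower, beside 17.5% and 20% of all arms. None of the 17 arms called higher in the ASE lines than in wild type had a smaller effect called without henn-1. Relative to ASE in henn-1(0), 56 arms (14.2%) had higher effects with henn-1 under the 3 scalings and 62 (15.7%) lower. The 56 higher ones were also called with the 8 libraries fitted alone, but only 7 of the 62 lower ones were, and the split moved between 56 higher and 173 lower (43.8%) with TMM, 58% of arms in all, 88 and 62 with RLE, 72 and 108 with total counts and 101 and 7 in the 8 libraries alone. Of the 56, 51 rose within the ASE lines with henn-1, beside 23.5% of all arms. Of the 62, 40 fell there, beside 22.3% of all arms. Both sets were picked with the same ASE libraries, so these overlaps are no separate evidence. miR-8198-3p had 2259 and 2034 CPM in oxidised ASE libraries with henn-1 against 3.96 and 4.74 CPM in henn-1(0), a difference of 10.59 ± 0.78. miR-798-3p had 5171 and 4335 CPM against 15.8 and 11.4 CPM (9.91 ± 0.75), and miR-78-3p had 10145 and 4030.1 CPM against 11.9 and 4.74 CPM (9.77 ± 1.03). miR-238-5p had 21726 and 32415 CPM against 198 and 459 CPM (8.71 ± 0.70). miR-789-1-3p had 18989 and 15505 CPM against 338 and 367 CPM (7.30 ± 0.49). In all 5 of these arms both libraries with henn-1 stood above both of henn-1(0). miR-240-5p, from an intestinal hairpin, had 106 and 211 counts against 1 and 0, a ratio of shares of 345 (95% exact interval 61.4 to 13664), and miR-5547-5p had 28 and 49 counts against 0 and 0, at least 27.9-fold higher by share. The difference was smaller for miR-232-5p, which had 27465 and 25089 CPM with henn-1 against 1884 and 2579 CPM in oxidised henn-1(0) libraries (4.38 ± 0.63). That arm took 0.188% and 0.258% of oxidised henn-1(0) counts, against 0.0099% and 0.0075% of untreated ones. It was smaller for miR-62-3p too, which took 39.8% and 41.1% of oxidised counts with henn-1 against 2.61% and 2.19% in henn-1(0) (4.64 ± 0.50).

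None of the 17 arms called against wild type was called higher with henn-1 than without it, as 14.2% of all arms were. All 17 were called higher on oxidation in henn-1(0) with TMM, as 17.5% of all arms were. Under the 3 scalings 12 were lower with henn-1, as 15.7% of all arms were. With the 8 libraries fitted alone 4 of the 17 were called lower. That fit called 7 of the 62 arms that were lower under the 3 scalings. lsy-6-3p had 1055 and 846 CPM in oxidised ASE libraries with henn-1, against 2581 and 3376 CPM in oxidised and 83.0 and 73.7 CPM in untreated henn-1(0) libraries. Its effect within henn-1(0) was 5.19 ± 0.49 relative to the median arm, against 3.19 ± 0.43 with henn-1; the difference passed with TMM (adjusted p = 2.38e-05) and not with RLE (0.0506) or the 8 libraries alone (0.384). miR-1821-3p had 2189.7 and 2425 CPM with henn-1 against 13021 and 14016 CPM in oxidised henn-1(0) libraries, and miR-124-3p had 7363 and 8015 CPM against 42380.0 and 42817 CPM. These are shares of a library, and miR-62-3p took the shares given above in the same libraries; the part of that in the lower shares of the other arms with henn-1 was not tested.

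**Figure D4:**
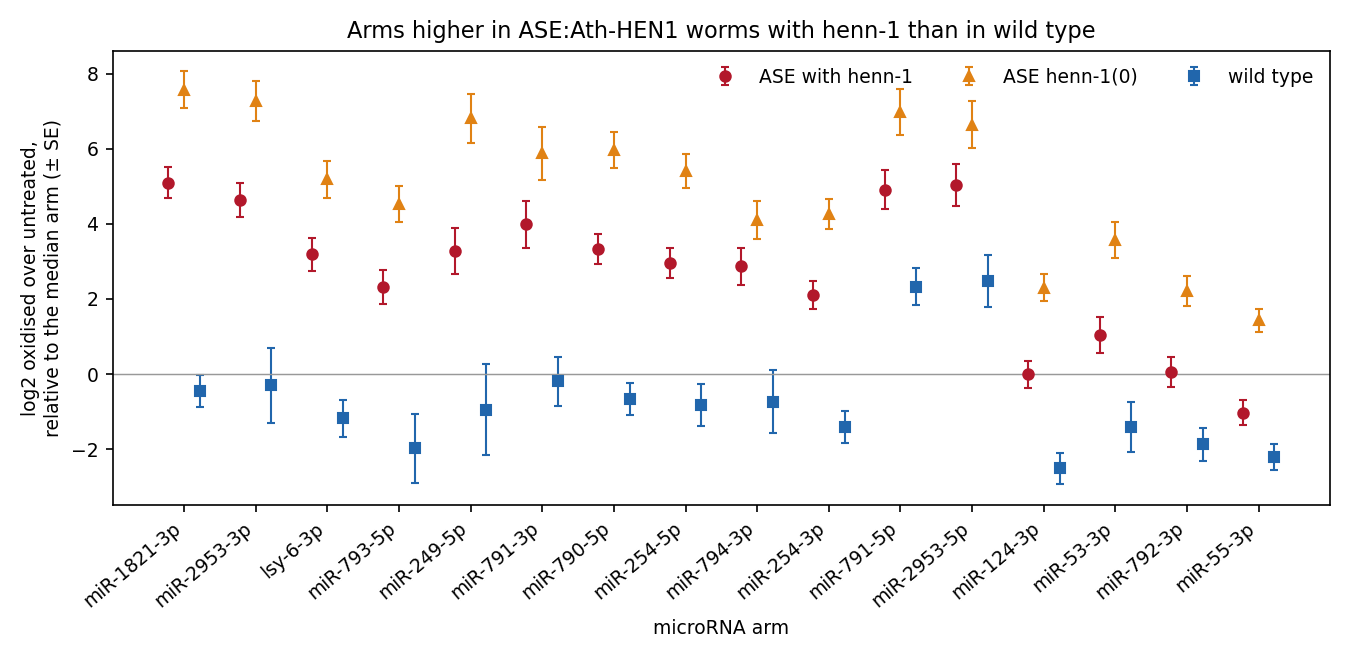
Oxidation effect relative to the median arm (log2, with SE) of 16 of the 17 arms called higher in the ASE lines with henn-1 than in wild type, in ASE with henn-1, ASE in henn-1(0) and wild type; lsy-6-5p is left out because oxidised wild type stood at 0 counts. For lsy-6-3p the values are 3.19 in ASE with henn-1 and 5.19 in ASE henn-1(0), above wild type.

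Against myo-3:Ath-HEN1 with henn-1, where the plant enzyme is driven in muscle, 4 of 8 neuronal arms stood higher in the ASE lines and 3 of 7 muscle arms lower. Both lists were chosen with earlier results of these data known, so these counts are no independent evidence. Under the 3 scalings 25 arms (6.33%) had higher effects in the ASE lines and 42 (10.6%) lower. With TMM 110 arms (27.8%) were called, 25 higher and 85 lower, and the split was 122 and 46 with RLE, 130 and 42 with total counts and 160 and 47 in the 8 libraries alone. Of the 17 arms, 14 were higher than with myo-3 (6.33% of all arms) and 1, miR-55-3p, was lower (10.6% of all arms). The 17 were picked with the same ASE libraries, so this count is no separate evidence. Within the myo-3 lines 59% of arms were called on oxidation with TMM, 27.3% higher and 31.6% lower, and 2 of the 17 were called higher there. lsy-6-3p had 1055 and 846 CPM in oxidised ASE libraries against 0 and 2.08 CPM with myo-3, from 667 and 1072 counts against 0 and 3; the ratio of shares was 788 (95% exact interval 269 to 3824). lsy-6-5p and miR-2953-3p had 0 counts in both oxidised myo-3 libraries, and their shares were at least 18.6-fold and 38.5-fold higher in the ASE lines. miR-1821-3p had 2189.7 and 2425 CPM against 6.15 and 4.15 CPM (7.27 ± 0.63), miR-790-5p 5119 and 3777 CPM against 41.3 and 40.1 CPM (5.44 ± 0.61) and miR-791-3p 563 and 211 CPM against 2.64 and 4.15 CPM (5.81 ± 1.01). miR-790-3p, the other arm of mir-790, had 376 and 168 CPM against 3.52 and 4.15 CPM (6.57 ± 1.36); against wild type, where it had 39.9 and 17.7 CPM, its difference of 3.90 ± 1.24 did not pass (adjusted p = 0.0973).

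miR-124-3p had 7363 and 8015 CPM in oxidised ASE libraries against 241 and 281 CPM with myo-3 (3.81 ± 0.52). In the other direction, miR-1-3p had 3654 and 3884 CPM in oxidised ASE libraries against 266528 and 244002 CPM with myo-3, a difference of -7.61 ± 0.59 (adjusted p = 3.21e-13). miR-231-5p had 0 and 5.52 CPM against 122 and 152 CPM (-6.74 ± 0.76). miR-4806-5p and miR-2210-5p stood at 0 counts in both oxidised ASE libraries against 31 and 24 counts and 34 and 22 counts with myo-3, shares at least 13.5-fold and 13.7-fold lower. miR-86-5p, of the muscle list, had 7826 and 7719 CPM against 75650.3 and 68539 CPM (-5.10 ± 0.41), and miR-64-5p, of the family that bears its number, had 790.5 and 743 CPM against 10042 and 10251 CPM (-5.34 ± 0.47). Of the miR-64 family 3 of 5 arms were lower, beside 10.6% of all arms. Leaving out the oxidised myo-3 library of line MLC889 moved the scale of this comparison. The median arm before centring stood at 1.79 without it, against -0.24 with all libraries, 1.30 with RLE and 1.43 with total counts. The difference of miR-124-3p relative to the median arm was 3.92 without that library and 3.81 with it.

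Without periodate and with TMM, no microRNA arm was called different between the ASE lines and wild type in whole larvae. Of 395 arms, 0 were called (0%) in untreated libraries with edgeR and TMM, 27 had an unadjusted p below 0.05, 2 were called with line as a replicate block, and DESeq2 called 4. lsy-6-3p had 107 and 93.3 CPM in untreated ASE libraries and 115 and 107 CPM in untreated wild type, a relative difference of -0.21 ± 0.42 (adjusted p = 0.863). Among the 17 arms whose oxidation effect was called higher than in wild type, the relative differences between untreated libraries ran from -1.98 for miR-791-3p to 0.93 for miR-793-5p, with a median of 0.15. miR-791-3p had 30.1 and 14.2 CPM in untreated ASE libraries and 95.8 and 71.4 CPM in untreated wild type, so that both ASE libraries were below both of wild type. That difference of -1.98 ± 0.62 did not pass (adjusted p = 0.186), but it is part of the difference of effects of 4.67 given for this arm. For miR-790-5p it was -0.69 ± 0.40 (adjusted p = 0.65), beside a difference of effects of 4.48.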

How the data were processed

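Small RNAs of 18 to 30 nt were sequenced from total RNA of whole L1 larvae, from at least 20 ug, per the labels' protocols. The authors deposited estimated counts per microRNA arm, 1 table a library with 916 entries, of which 473 are worm arms and 443 had 0 counts in every library; the values are not normalised and some are fractions. The submitters' processing notes name cutadapt 1.2.1, HTSeq 0.6.1p1 and the WBcel235 build, without their roles. The sources used here name no other step.

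Counts were rounded to whole numbers and fitted in 1 edgeR 4.0.16 quasi-likelihood model (robust, R 4.3.3, limma 3.58.1) of all 46 libraries in 22 groups, with TMM scaling, a filter at a minimum count of 10 that kept 395 arms, and Benjamini-Hochberg adjustment within each of 5 comparisons at 0.05. The default TMM scale was set by an oxidised myo-3 library, so log2 values are given relative to the median arm, and "rose" and "fell" require the same call with RLE factors and with total counts. The pipeline was tested on simulated data. Alternatives were DESeq2 1.42.0, other scalings, no filter, arms with whole counts, each library left out, the 8 libraries (4 for a single effect) alone, and TMM against an untreated ASE library, the last chosen after seeing the data.

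Lines pair an oxidised with an untreated library. Deviations from the group means of libraries of 1 line correlated at 0.118 in the ASE lines with henn-1, and at -0.0019 to 0.764 over the transgenic genotypes.

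Arms were named by rule: both arms of the 4 marker hairpins (of ASE, nervous system, muscle and intestine); the 15 largest called rises, the 8 largest called falls and the 8 largest shares in the ASE lines; the 8 largest called differences each way from each genotype; and the main arm of any listed hairpin. The members and the lists were chosen with earlier results of these data known. Positions were read from the Ensembl release 115 annotation of WBcel235 for 393 of the tested arms. Sequences of microRNAs were not used here.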

Additional observations from a re-analysis of the deposited data

Results flagged for a closer look

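The results below are differences of oxidation effects between 2 genotypes that passed the test of the difference itself. Values are log2, relative to the median arm of the comparison. Against wild type 18 arms differed, and those named by rule with more than 3 counts in each group, the same call under 3 scalings and relative effects of opposite sign in the 2 genotypes were miR-1821-3p at 6.04, lsy-6-3p at 4.86, miR-791-3p at 4.67 and miR-790-5p at 4.48, all higher in the ASE lines with henn-1. Against ASE in henn-1(0) 229 arms differed with TMM, and by the same criteria miR-8198-3p at 10.6, miR-798-3p at 9.91 and miR-78-3p at 9.77 were higher with henn-1. Against myo-3 with henn-1 110 arms differed with TMM, and by the same criteria miR-1821-3p at 7.27, miR-790-3p at 6.57 and miR-791-3p at 5.81 were higher in the ASE lines and miR-1-3p at -7.61 and miR-231-5p at -6.74 lower. No group here had 4 libraries, so single libraries were not tested for standing apart.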

How the results depend on the processing

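Counts of called arms in the ASE lines were 244 to 266 when 1 library was left out and 244 with DESeq2, against 284. The difference from wild type gave 12 to 20 arms over libraries left out, 25 with DESeq2 and 30 with the 8 libraries alone, against 18. The difference from henn-1(0) gave 150 with RLE, 152 with DESeq2 and 108 with the 8 libraries alone, and 197 to 221 over libraries left out, against 229. The difference from myo-3 gave 168 with RLE, 172 with total counts, 181 with TMM against an untreated ASE library, 207 with the 8 libraries alone, 177 with DESeq2 and 99 to 166 over libraries left out, against 110. Untreated calls, 0 with TMM, were 2 with RLE, 2 with total counts, 2 with TMM against an untreated ASE library, 1 with the libraries alone, 4 with DESeq2 and 0 with any library left out. With line as a replicate block the 5 comparisons gave 290, 22, 232, 114 and 2 calls in this order, so it moved no other count by over 1.5 times than the untreated one.

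Before centring, single arms in the ASE lines changed sign as the scale moved all arms together, by 2.36 at the median arm with RLE and 1.83 with total counts. miR-79-3p (-0.92 with TMM) was 1.45 with RLE, 0.94 with total counts, 0.91 with TMM against an untreated ASE library, 1.05 with the 4 libraries alone and 1.45 with DESeq2. miR-67-3p (-0.89) was 1.48, 0.97, 0.94, 1.10 and 1.48 under the same settings. miR-124-3p (-1.84) was 0.53 with RLE, 0.020 with total counts, 0.15 with the 4 libraries alone and 0.53 with DESeq2. Relative to the median arm the 3 arms hardly moved with these scales: 0.91 with TMM, 0.91 with RLE and 0.93 with total counts for miR-79-3p, 0.94, 0.95 and 0.96 for miR-67-3p, and -0.010, 0.0022 and 0.014 for miR-124-3p. Against henn-1(0) with the 8 libraries alone, miR-124-5p was 0.53 and miR-60-5p 0.74, against -2.14 and -1.94, and relative to the median arm 0.24 and 0.45, against -0.090 and 0.11. The difference of let-7-5p from wild type was between -11.14 and 4.03 over libraries left out, the upper value without the first oxidised wild type library; both ends are fits with an oxidised group at 0 counts, so neither is a measured fold. Depth limits the oxidised libraries: among the 8 largest falls, all at 0 counts, the largest bound was 7.36-fold.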
